A study of Mus musculus with 12 samples.

Results

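The 30 genes described here make sterols and fatty acids or control that synthesis: 18 encode enzymes of the cholesterol pathway, 8 encode enzymes that build, elongate or desaturate fatty acids, and 4 encode regulators or a sterol carrier. They were chosen by name, and all 30 were found among 48709 counted genes by matching Ensembl identifiers to symbols. RNA was sequenced from 12 samples of sorted C57BL/6 mouse cells, in 4 groups of 3. Cells of one kind of culture were sorted into mCherry-positive and mCherry-negative cells, and cells of another into EGFP-positive and EGFP-negative cells. Cells of every group came from hypothalami of embryonic day 18, dissociated, exposed to virus at a multiplicity of infection of 10, and grown for a week as neurospheres, floating clusters of neural cells, with basic fibroblast growth factor at 10 ng/ml added after 24 h. An adeno-associated virus (AAV) carried the mCherry reporter for hypocretin (Hcrt) cells, and the EGFP reporter for melanin-concentrating hormone (MCH, gene Pmch) cells came in a lentivirus. Reporter-negative cells are therefore the cells of the same kind of culture that showed no reporter signal, not untreated cells. cDNA was made from 0.8 ng of RNA in the mCherry sort and 2 ng in the EGFP sort, so virus, RNA input and sort change together between the sorts. Whether replicates came from separate cultures is not in the labels, so the p-values speak of the spread among these samples alone, and that spread may be technical.

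Cholesterol is built from acetyl-CoA through mevalonate, farnesyl diphosphate, squalene and lanosterol, and fatty acids from the same precursor through malonyl-CoA. Both routes are controlled by sterol regulatory element-binding proteins, transcription factors held in the endoplasmic reticulum with INSIG and SCAP proteins while sterols are plentiful and released when sterols fall. The product of Srebf2 mainly drives sterol genes, and products of Srebf1 mainly drive fatty acid genes. In the brain nearly all cholesterol is made locally, by astrocytes and, for myelin, by oligodendrocytes.

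Reads in genes numbered 16.3 to 32.9 M per library. Levels below are CPM, counts scaled to a common total per library after TMM, edgeR's correction for library composition, over all 12 libraries. Pmch, the transcript behind the EGFP reporter, was at 17.3, 19.1 and 18.9 CPM in EGFP-positive libraries and 3.94, 5.03 and 4.81 CPM in EGFP-negative libraries (exact two-sided permutation p = 0.1, the lowest that 3 against 3 samples allow). In the mCherry sort Pmch reached at most 0.393 CPM in positive and 0.257 CPM in negative libraries. Its level in EGFP-negative cells was thus also above that in both mCherry groups, and the reason was not tested. Hcrt reached at most 0.393 CPM in mCherry-positive and 0.227 CPM in mCherry-negative libraries (exact two-sided permutation p = 0.6), so the mCherry groups are named by their sort and not by that transcript. The summed level of 10 astrocyte markers was 17005 to 21504 CPM in EGFP-positive and 8954 to 9236 CPM in EGFP-negative libraries, and 9468 to 13685 CPM in mCherry-positive and 4795 to 8636 CPM in mCherry-negative libraries. For 10 markers of mature oligodendrocytes the sum was 1131 to 1161 CPM in EGFP-positive and 3272 to 3421 CPM in EGFP-negative libraries, and 3197 to 4933 CPM in mCherry-positive and 2661 to 3423 CPM in mCherry-negative libraries. The sum of 10 neuron markers, none of them at 0 in any group, was 964 to 1242 CPM in EGFP-positive and 1475 to 1506 CPM in EGFP-negative libraries, and 1213 to 2457 CPM in mCherry-positive and 1674 to 2277 CPM in mCherry-negative libraries. In such bulk samples, fewer cells of a type and less RNA per cell cannot be told apart.

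Every member was expressed in every group, and all 30 passed the filter on low counts in each comparison. Per exonic length, given as TPM, a level scaled to the same total in each library, the most abundant was Scd2, the main stearoyl-CoA desaturase of the brain, which places the double bond of oleic acid. Its mean was 2359 TPM in mCherry-positive and 1337 TPM in mCherry-negative cells, and 2798 TPM in EGFP-positive and 1878 TPM in EGFP-negative cells. Hmgcs1, which makes the HMG-CoA that feeds mevalonate synthesis, came next by the mean over 12 libraries, at 844, 693, 1067 and 702 TPM in the same 4 groups in the same order. Fads2 and Fads1, the desaturases of polyunsaturated fatty acids, followed at 781, 482, 1222 and 793 TPM and at 668, 541, 971 and 623 TPM. Scd2 exceeded its neighbour Scd1 in every library, by 12.3 to 34.6 times in TPM. At the low end stood the carboxylase gene Acaca, which makes malonyl-CoA, at 5.95, 4.50, 5.11 and 5.70 TPM, then Fdps, the farnesyl diphosphate synthase, at 13.5, 15.5, 12.98 and 15.2 TPM and the isomerase gene Idi1 at 13.97, 14.2, 17.2 and 13.8 TPM. Acaca, Fdps and Idi1 share sequence with other genes, as given below, and exonic length counts all exons annotated for a gene. How far this lowers their TPM was not tested.

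**Figure D1:**
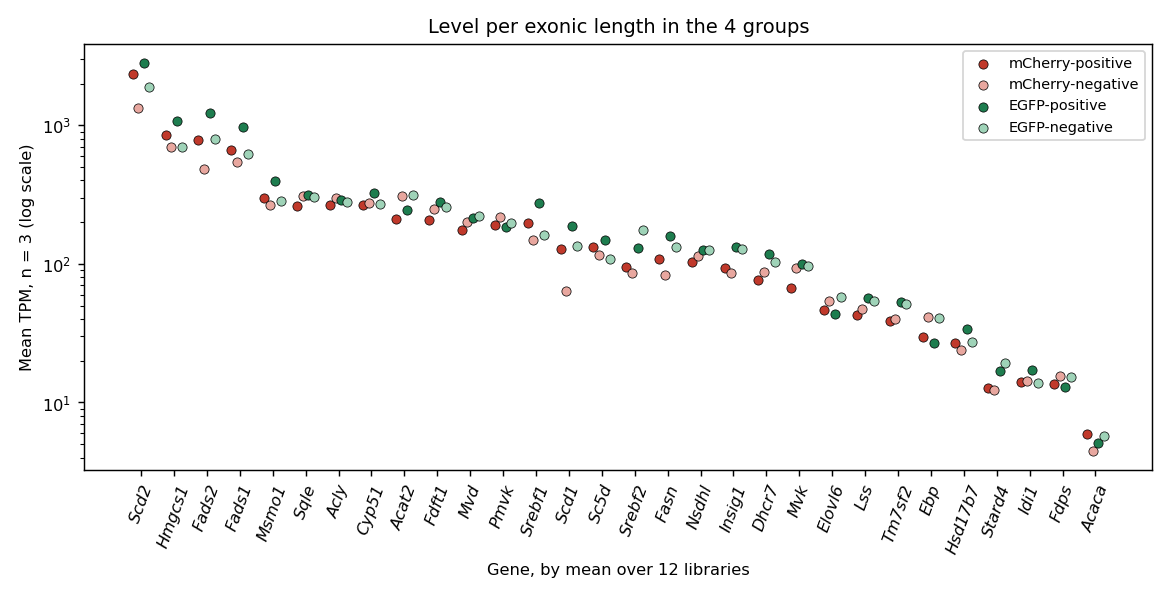
Mean TPM (log axis) of each of the 30 genes in the 4 groups, with genes ordered by their mean over 12 libraries. Scd2, Hmgcs1, Fads2 and Fads1 stand highest, and Stard4, Idi1, Fdps and Acaca lowest.

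The levels of some members are uncertain because other genes share their sequence. Of the 50-base words in annotated transcripts of Acat2, the thiolase that opens the pathway, 39.1% also stand in transcripts of other genes, chiefly its neighbour Acat3. The share was 30.4% for Acaca, 26.5% for Fdft1 (mostly Ctsb, which overlaps it on the other strand), 26.2% for Fdps, 25.3% for Idi1, 11.6% for Hmgcs1 and 9.87% for Tm7sf2. For the other 23 members it was at most 4.56%. Fdps overlaps the protein-coding gene Gm43738 on the same strand over 26.7% of its exonic bases, and Tm7sf2 overlaps Vps51 over 12.1%. The files list ambiguous and multiply aligned reads apart from the genes, and the strand setting of the counting was not given in the sources used here. How far this changes the counts of these genes was not tested.

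In the EGFP sort, cells in which the MCH reporter was active were set against those in which it was not. In EGFP-positive cells 5 of 30 members rose (16.7%, against 8.99% of all 16326 genes tested) and 0 fell (7.07% of all genes) in edgeR (quasi-likelihood test, Benjamini-Hochberg adjustment over all genes, threshold 0.05). The rises were Srebf1, the sterol enzymes Msmo1 and Sc5d, and the desaturases Fads1 and Fads2. At an unadjusted p under 0.05, 10 members were higher and 4 lower (30.5% of all genes in either direction). DESeq2 called 9 members higher and 2 lower, and over all 16326 genes 1966 higher and 1554 lower. By limma-voom 5 members were higher and 1 lower, and over all genes 1479 and 1274. Without overlap between the groups 9 members lay higher and 4 lower, against 18.6% and 16.9% of all genes tested. Over all members the median log2 fold change was 0.15, with 22 above 0 and 8 below, beside a median of -0.01 over all genes tested.

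Among the regulators, Srebf1 (ENSMUSG00000020538, GRCm38 chromosome 11, 60199089 to 60222581, minus strand) stood at 484, 473 and 509 CPM in EGFP-positive libraries, against 260.4, 264 and 277 CPM in EGFP-negative libraries. All 3 positive libraries lay above all 3 negative ones, and the replicates of each group lay close together. Srebf1 rose by 0.85 ± 0.09 (SE) on the log2 scale (adjusted p 5.38e-04) and kept that call in all 13 alternative fits, between 0.83 and 0.88. Srebf2 (ENSMUSG00000022463, GRCm38 chromosome 15, 82147181 to 82205379, plus strand) lay the other way, at 269.9, 324 and 299 CPM in EGFP-positive libraries and 396, 369 and 342 CPM in EGFP-negative libraries. The ranges of Srebf2 did not meet, but its log2 fold change of -0.33 ± 0.11 (SE) did not pass the test (adjusted p 0.0698). Insig1, which retains the SREBP complex in the endoplasmic reticulum, averaged 128 ± 23.4 CPM in EGFP-positive and 116 ± 2.503 CPM in EGFP-negative cells (SD, n = 3 each), with overlapping libraries. Stard4, a carrier that moves cholesterol between membranes, averaged 29.7 ± 2.61 CPM in EGFP-positive and 31.6 ± 3.18 CPM in EGFP-negative cells, also overlapping.

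Of the 18 sterol enzymes, 2 rose in EGFP-positive cells (11.1%, near the 8.99% of all genes). Both act after lanosterol. Msmo1, an oxidase that starts removal of methyl groups from the sterol ring (ENSMUSG00000031604, GRCm38 chromosome 8, 64718139 to 64733792, minus strand), had 729.6, 753 and 808 CPM in EGFP-positive libraries, against 487, 540.5 and 519.8 CPM in EGFP-negative libraries. Its log2 fold change was 0.55 ± 0.09 (SE) (adjusted p 0.00415). Sc5d, the desaturase before the last reduction to cholesterol (ENSMUSG00000032018, GRCm38 chromosome 9, 42251595 to 42264256, minus strand), had 198, 230.3 and 251 CPM in EGFP-positive libraries, against 139.8, 151 and 169 CPM in EGFP-negative libraries, a log2 fold change of 0.55 ± 0.13 (SE) (adjusted p 0.0177). In both genes every positive library lay above every negative one. The Sc5d call was lost without EGFP-positive replicate 2, EGFP-negative replicate 1 or EGFP-negative replicate 2 (adjusted p 0.0810, 0.0894 and 0.0874). A fit of all 12 samples also lost it (adjusted p 0.249), and lost the call on Msmo1 (adjusted p 0.315).

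Upstream of lanosterol, Hmgcs1 (ENSMUSG00000093930, GRCm38 chromosome 13, 119690379 to 119708260, plus strand) had the largest log2 fold change among the 18 in size, 0.68 ± 0.20 (SE), but missed the threshold narrowly (adjusted p 0.0507). It stood at 1023, 1587 and 1993 CPM in EGFP-positive libraries and 839, 959 and 1035 CPM in EGFP-negative libraries, so 1 positive library lay within the negative range. The enzymes that turn mevalonate into isoprenoid units lay close together in both groups. Mvk averaged 85.02 ± 8.79 CPM in EGFP-positive and 76.2 ± 10.5 CPM in EGFP-negative cells (SD, n = 3 each), Pmvk 101 ± 21.3 and 99.7 ± 11.5 CPM, and Mvd 127 ± 8.56 and 121 ± 6.37 CPM in the same order. The other steps up to lanosterol gave log2 fold changes of 0.41 for Idi1, -0.13 for Fdps, 0.20 for Fdft1, the squalene synthase, and 0.16 for Lss, which closes the sterol rings, and none passed the test. Sqle, the squalene epoxidase and a control point of the pathway, averaged 546 ± 56.02 CPM in EGFP-positive and 490.0 ± 31.99 CPM in EGFP-negative cells. The enzymes with non-overlapping libraries in the other direction were Acat2 and Ebp, and neither passed the test.

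Acat2 had 193, 197 and 200.3 CPM in EGFP-positive libraries, against 233, 235 and 233 CPM in EGFP-negative libraries (adjusted p 0.0815). Ebp, the sterol isomerase ahead of Sc5d, had 22.8, 18.4 and 18.3 CPM in EGFP-positive libraries, against 29.6, 26.5 and 26.7 CPM in EGFP-negative libraries (adjusted p 0.0543). Dhcr7, which carries out the last reduction to cholesterol, had 208, 214 and 228 CPM in EGFP-positive libraries, against 174, 182 and 170.2 CPM in EGFP-negative libraries (adjusted p 0.0792). Neighbouring steps lay on opposite sides of 0, with log2 fold changes of -0.50 for Ebp, 0.55 for Sc5d and 0.29 for Dhcr7. Between lanosterol and Ebp, the demethylase gene Cyp51 had a log2 fold change of 0.35, the reductase gene Tm7sf2 of 0.13, and Nsdhl and Hsd17b7, which work with Msmo1 to remove methyl groups, of 0.10 and 0.38, and none of these passed the test.

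Of the 8 fatty acid genes 2 rose (25.0%, against 8.99% of all genes), both in the synthesis of polyunsaturated fatty acids. Fads2 (ENSMUSG00000024665, GRCm38 chromosome 19, 10062765 to 10101746, minus strand), which takes the first desaturation step, had 1153, 1336 and 1325 CPM in EGFP-positive libraries, against 761, 782 and 755 CPM in EGFP-negative libraries. Its log2 fold change was 0.71 ± 0.09 (SE) (adjusted p 0.00115), called in all 13 alternative fits. Fads1 (ENSMUSG00000010663, GRCm38 chromosome 19, 10182888 to 10196877, plus strand), which acts later in the same route, had 1157, 1548 and 1703 CPM in EGFP-positive libraries, against 837, 908 and 888 CPM in EGFP-negative libraries, a log2 fold change of 0.73 ± 0.13 (SE) (adjusted p 0.00714). Both genes were higher in every positive library than in any negative one. The call on Fads1 was lost in a fit of all 12 samples (adjusted p 0.0504). Scd1 had 201, 305 and 358 CPM in EGFP-positive libraries, against 178, 199.9 and 197 CPM in EGFP-negative libraries (adjusted p 0.0689), and Scd2 3077, 5102 and 6172 CPM, against 2759, 3118 and 3137 CPM (adjusted p 0.0602).

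Elovl6, which lengthens saturated fatty acids, had 92.5, 87.3 and 87.3 CPM in EGFP-positive libraries, against 105, 111 and 109.6 CPM in EGFP-negative libraries (adjusted p 0.0815). Here all positive libraries lay below all negative ones. The fatty acid synthase gene Fasn varied within its positive group, at 377, 549.7 and 704 CPM in EGFP-positive and 406, 457 and 401 CPM in EGFP-negative libraries, and so did Acly, which supplies cytosolic acetyl-CoA, at 329, 509 and 607 CPM and 407, 463 and 433 CPM. Replicate 1 was the lowest of the EGFP-positive libraries in both. Acaca had 25.3, 23.8 and 33.3 CPM in EGFP-positive and 31.2, 30.5 and 24.1 CPM in EGFP-negative libraries, which overlapped. Without EGFP-positive replicate 1, 15 of 30 members were called higher and 2 lower, against 5 and 0 with it, while the count over all genes grew to 2884 higher and 2360 lower, against 1468 and 1154. The astrocyte marker sum, with 7 of 10 markers called higher and S100b called lower, was lowest in that same positive library, at 17005 CPM, against 19489.8 and 21504 CPM. Of other lists, 8 of 8 markers of oligodendrocyte precursors and 7 of 10 of neurons were called lower in EGFP-positive cells, and 6 of 7 ependymal markers higher. Also called lower were 3 of 7 tested pituitary markers and 1 of 10 markers of dividing cells. Microglial markers were called lower in 9 of 10 cases and higher for P2ry12, and markers of fibroblasts and mural cells lower in 5 of 8 and higher for Pdgfrb and Acta2. The part of these cell types in the members' levels was not tested.

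**Figure D2:**
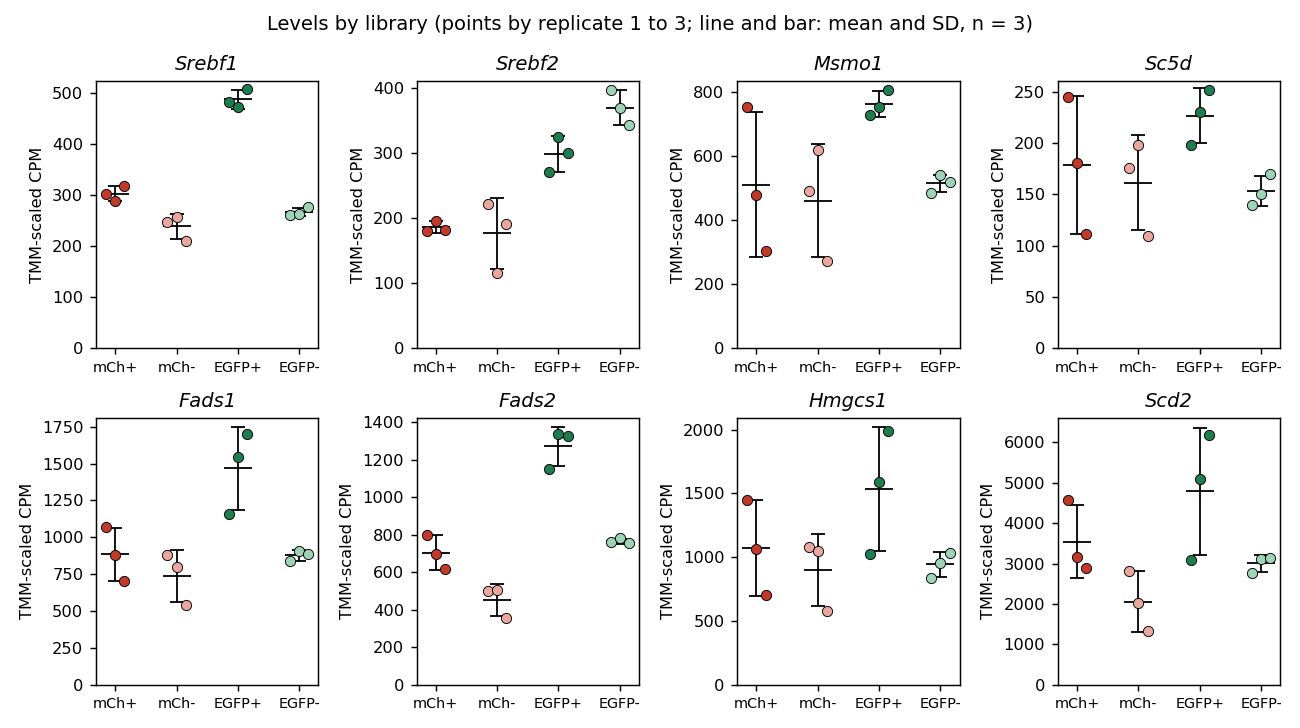
TMM-scaled CPM of 8 members in each library, by group (mCh stands for mCherry, and + and - for reporter-positive and reporter-negative cells), with the mean and SD of 3. Srebf1 and Fads2 lie higher in every positive library than in any negative library of the same sort, and Srebf2 lies lower in EGFP-positive than in EGFP-negative libraries.

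The sequences upstream of start sites are shown for the members that rose in EGFP-positive cells and have a promoter window in RefSeq, and for Hmgcs1, the only member with a match to the sterol regulatory element letters searched. RefSeq windows on GRCm38.p6, from 250 bases before to 50 bases after each start, were found for 23 of 30 members. There were none in the table for Fads1, Fdft1, Fdps, Scd1, Scd2, Sqle and Stard4. The 250 bases before the start are printed 5′ to 3′ on the gene's strand, with every match on either strand in capitals. The letters searched for a sterol regulatory element were TCACNCCAC. The CCAAT box was searched by that name's letters. A GC box was taken as GGGCGG. An E-box was taken as CACGTG. For Srebf1, which has 3 listed starts, the innermost is shown. The bases just after the start stand in a GENCODE M21 transcript of the same gene for Msmo1 and Fads2. They do not for Hmgcs1, Sc5d or the Srebf1 start shown, but they do for the outermost Srebf1 start.
Hmgcs1 (chr13:119690101-119690350, plus strand): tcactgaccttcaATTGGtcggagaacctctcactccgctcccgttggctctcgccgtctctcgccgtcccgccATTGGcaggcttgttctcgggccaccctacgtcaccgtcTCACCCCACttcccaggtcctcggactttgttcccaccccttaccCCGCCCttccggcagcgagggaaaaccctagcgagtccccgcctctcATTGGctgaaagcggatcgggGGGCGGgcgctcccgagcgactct
Srebf1 (chr11:60210472-60210721, minus strand): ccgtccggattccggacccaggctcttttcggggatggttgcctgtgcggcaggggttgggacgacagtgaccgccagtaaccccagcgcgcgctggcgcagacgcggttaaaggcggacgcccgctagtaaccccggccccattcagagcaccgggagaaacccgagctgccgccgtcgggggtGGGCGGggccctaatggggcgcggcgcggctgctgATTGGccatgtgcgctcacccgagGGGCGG
Msmo1 (chr8:64733579-64733828, minus strand): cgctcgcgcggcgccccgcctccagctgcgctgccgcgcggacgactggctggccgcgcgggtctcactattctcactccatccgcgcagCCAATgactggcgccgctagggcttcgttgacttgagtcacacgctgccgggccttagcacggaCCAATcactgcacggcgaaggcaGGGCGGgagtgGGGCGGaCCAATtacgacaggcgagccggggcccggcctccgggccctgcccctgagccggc
Sc5d (chr9:42264301-42264550, minus strand): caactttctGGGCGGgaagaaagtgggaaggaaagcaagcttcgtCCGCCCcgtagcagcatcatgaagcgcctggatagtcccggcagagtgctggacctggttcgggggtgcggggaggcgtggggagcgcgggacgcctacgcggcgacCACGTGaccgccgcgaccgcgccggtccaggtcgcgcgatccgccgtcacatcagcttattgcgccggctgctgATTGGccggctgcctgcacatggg
Fads2 (chr19:10101504-10101753, minus strand): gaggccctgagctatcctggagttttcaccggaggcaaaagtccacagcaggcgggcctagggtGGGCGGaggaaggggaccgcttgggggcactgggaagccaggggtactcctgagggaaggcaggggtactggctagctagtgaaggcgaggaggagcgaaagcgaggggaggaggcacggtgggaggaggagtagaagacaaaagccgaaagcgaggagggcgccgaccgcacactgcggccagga
CCAAT was found in 19 of 23 members (82.6%), against 41.1% of 27025 genes with a window, and GGGCGG in 19 of 23, against 38.2% of genes. CACGTG was found in Dhcr7, Hsd17b7, Insig1 and Sc5d (17.4%), against 8.09% of genes. TCACNCCAC was found in Hmgcs1 (1 of 23), against 1.44% of genes. Different motifs did not overlap in any member's window, and the only overlap was between a pair of CCAAT matches in Fasn. The printed stretches of Msmo1 and Hmgcs1 carry several CCAAT and GC boxes, while that of Fads2 holds a single GC box and no CCAAT. The genes compared were not matched to the members for GC content or expression, and the printed stretches are 64.8% to 72.0% G and C. All these are matches of letters, not binding sites.

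The mCherry comparison asked the same of cells with an active Hcrt reporter. In mCherry-positive cells 0 of 30 members were called higher (0.541% of all 17369 genes tested) and 0 lower (0.656% of all genes) by edgeR's quasi-likelihood test. At an unadjusted p under 0.05, Scd1, Scd2 and Fads2 were higher and Acat2 was lower (18.6% of all genes in either direction). DESeq2 called Scd2 and Fads2 higher (885 of all 17369 genes were higher). By limma-voom 0 members were called (100 genes higher), and a fit of all 12 samples called Fads2 (883 of 18063 genes higher). The biological coefficient of variation that edgeR fitted in common to all genes was 0.382 in this sort and 0.189 in the EGFP sort, so differences of the size seen in the EGFP sort were harder to detect here. A missed threshold does not show that levels were alike.

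Fads2 had 802, 696 and 619.9 CPM in mCherry-positive libraries, against 498, 504 and 354 CPM in mCherry-negative libraries, a log2 fold change of 0.65 ± 0.20 (SE) (adjusted p 0.133). Scd2 had 4575, 3166 and 2891 CPM in mCherry-positive libraries, against 2827, 2024 and 1325 CPM in mCherry-negative libraries, a log2 fold change of 0.79 ± 0.29 (SE) (adjusted p 0.183). In both genes the groups did not overlap. Scd1 had the largest log2 fold change of the 30 members, 1.02 ± 0.42 (SE), but its libraries overlapped, at 220.4, 231 and 74.8 CPM in mCherry-positive and 122, 88.6 and 50.4 CPM in mCherry-negative libraries (adjusted p 0.239). Fads1 averaged 884 ± 182 CPM in mCherry-positive and 739 ± 178 CPM in mCherry-negative cells (SD, n = 3 each).

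Srebf1 had 303, 288 and 318 CPM in mCherry-positive libraries, against 248, 258 and 211 CPM in mCherry-negative libraries, a log2 fold change of 0.35 ± 0.16 (SE) (adjusted p 0.285). Every positive library lay above every negative one. Srebf2 was at 180.5, 196 and 182 CPM in mCherry-positive and 222, 116 and 191 CPM in mCherry-negative libraries, overlapping. Insig1 had 96.3, 78.1 and 62.3 CPM in mCherry-positive and 96.8, 70.97 and 59.3 CPM in mCherry-negative libraries, also overlapping. Stard4 averaged 19.7 ± 6.14 CPM in mCherry-positive and 19.5 ± 3.65 CPM in mCherry-negative cells (SD, n = 3 each). Among the sterol enzymes 14 of 18 had a log2 fold change below 0, with a median of -0.20, beside 0.02 over all genes tested. Acat2 was lowest, at 163, 176 and 107 CPM in mCherry-positive libraries, against 213, 271 and 187 CPM in mCherry-negative libraries (log2 fold change -0.58 ± 0.23 (SE), adjusted p 0.218). Above 0 were Hmgcs1 (0.26), Msmo1 (0.16), Hsd17b7 (0.16) and Sc5d (0.16), each with overlapping libraries. Msmo1 had 753, 478 and 304 CPM in mCherry-positive and 492, 619 and 271 CPM in mCherry-negative libraries, and in both groups replicate 3 was the lowest. Ebp had 19.6, 20.9 and 16.04 CPM in mCherry-positive libraries, against 23.2, 24.1 and 35.7 CPM in mCherry-negative libraries (adjusted p 0.278), and Elovl6 91.1, 87.3 and 68.1 CPM, against 105, 99.3 and 94.98 CPM (adjusted p 0.443). In these 3 genes all positive libraries lay below all negative libraries. In all, 3 members lay higher and 3 lower without overlap, against 11.8% and 14.0% of all genes tested. The median over all 30 members was -0.07, and it was 0.10 without mCherry-positive replicate 3 and 0.05 without mCherry-negative replicate 1. Of 10 markers of dividing cells 7 were called lower in mCherry-positive cells, with sums of 262 to 380.3 CPM, against 751 to 949 CPM in mCherry-negative libraries. Called higher were 1 of 10 astrocyte markers (median log2 fold change 0.61, 9 above 0) and 1 of 7 ependymal markers (median 1.00, 7 above 0). Over all genes tested 0.541% were called higher and 0.656% lower. No marker of the other lists was called, with list medians from -0.90 (fibroblasts and mural cells) to 2.79 (pituitary). The part of these cell types in the members' levels was not tested.

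**Figure D3:**
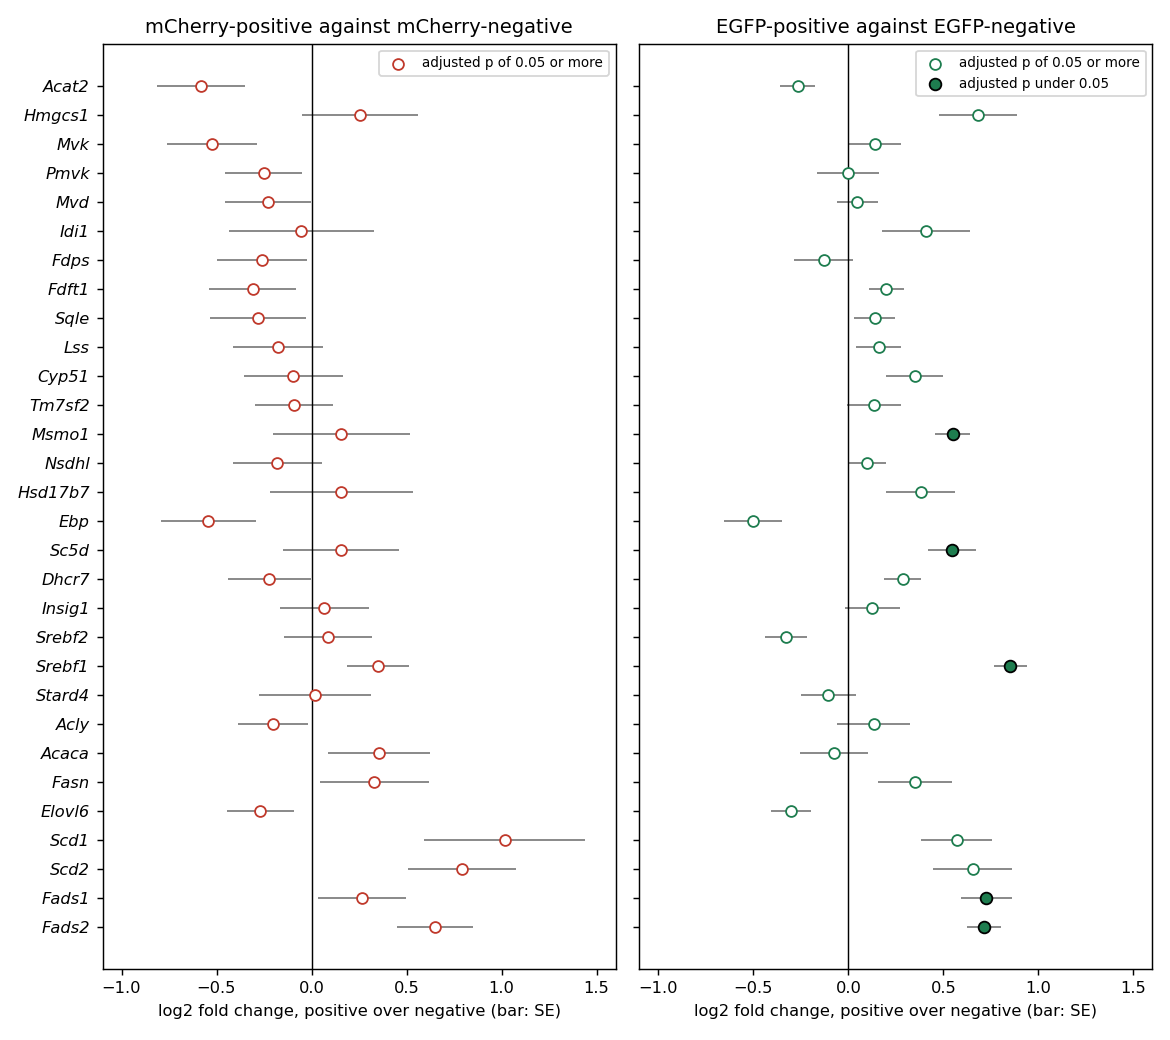
Log2 fold change, positive over negative cells, with its SE for each of the 30 members in the mCherry sort and in the EGFP sort, and filled points for an adjusted p under 0.05. The 5 filled points are Msmo1, Sc5d, Srebf1, Fads1 and Fads2 in the EGFP sort, and the SE bars are longer in the mCherry sort.

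The sorts share no samples, so their directions can be set side by side. Of the 30 members, 11 had a log2 fold change above 0 in both sorts, 5 below 0 in both, 11 below 0 in mCherry and above 0 in EGFP, and 3 the reverse. Srebf1 and Fads2 were higher without overlap in the positive cells of both sorts (2 of 30, against 5.63% of 15995 genes tested in both). Acat2, Ebp and Elovl6 were lower without overlap in both (3 of 30, against 3.66%). For higher genes the count is near the background, and for lower genes it rests on 3 genes, of which Acat2 shares sequence with Acat3. Whether the reporter effect itself differed between sorts was tested in a fit of all 12 samples. Of the members 0 were called in that test (0.886% of 18063 genes were called higher in mCherry and 0.559% lower), with 0 by DESeq2 and 0 by limma-voom, and 3 lower at an unadjusted p under 0.05 (Mvk, Dhcr7 and Srebf1), against 15.1% of all genes in either direction.

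The difference, mCherry effect minus EGFP effect, was below 0 for 24 of 30 members under TMM scaling (23 under DESeq2's size factors) and, under TMM, for all 18 sterol enzymes. Over those 18 the median was -0.39 in log2 and the range -0.69 to -0.07, beside a median of -0.03 over all genes tested. Over the 8 fatty acid genes it was -0.02, with 4 on each side of 0. The largest single difference among the 30 was that of Mvk, the mevalonate kinase, at -0.69 ± 0.29 (SE) (adjusted p 0.270): it had 46.5, 64.9 and 37.5 CPM in mCherry-positive and 58.2, 76.6 and 80.6 CPM in mCherry-negative libraries, and 94.8, 82.3 and 77.9 CPM in EGFP-positive and 88.3, 70.5 and 69.8 CPM in EGFP-negative libraries. For Srebf1 the difference was -0.53 ± 0.17 (SE) (adjusted p 0.146) and for Dhcr7 -0.53 ± 0.24 (SE) (adjusted p 0.314). Over all 30 members the median was -0.30, and it was -0.16 without mCherry-positive replicate 3. The 18 enzymes were measured in the same libraries and do not vary independently.

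In the mCherry groups, members varied together from library to library. In mCherry-positive cells replicate 3 was the lowest of the 3 libraries for 17 of 18 sterol enzymes (94.4%, against 33.04% of all genes) and for 6 of 8 fatty acid genes. In mCherry-negative cells replicate 3 was the lowest for 14 of 18 sterol enzymes (77.8%, against 38.6% of all genes) and for 6 of 8 fatty acid genes. The median log2 ratio of the 18 sterol enzymes to their 12-library means was -0.73 in mCherry-positive replicate 3 and -0.39 in mCherry-negative replicate 3. In the other 10 libraries it lay between -0.16 and 0.26. Scd1 was lowest of all 12 libraries in mCherry-negative replicate 3, at 50.4 CPM, next lowest in mCherry-positive replicate 3, at 74.8 CPM, and highest in EGFP-positive replicate 3, at 358 CPM.

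In EGFP-positive cells, replicate 1 was lowest for 6 of 8 fatty acid genes and for 10 of 18 sterol enzymes, against 41.3% of all genes. It was also the highest for 7 of 18 sterol enzymes, against 42.5% of all genes. In EGFP-negative cells replicates 1, 2 and 3 were the lowest for 8, 5 and 5 sterol enzymes. The median coefficient of variation of the 30 members over 3 libraries was 24.4% in mCherry-positive, 23.96% in mCherry-negative, 12.4% in EGFP-positive and 6.25% in EGFP-negative cells. Steadiest were Acat2 in EGFP-negative (0.522%) and Nsdhl in EGFP-positive cells (1.43%). Scd1 varied most in mCherry-positive cells (49.7%) and Fasn in mCherry-negative cells (45.4%). Marker sums differed between these libraries too. The pituitary marker sum was 5095 CPM in mCherry-positive replicate 3, against 7.26 and 2259.5 CPM in replicates 1 and 2. In mCherry-negative replicate 3 it was 173 CPM, against 5.81 and 219 CPM. The astrocyte sum was 4795 CPM in mCherry-negative replicate 3, against 8075 and 8636 CPM in replicates 1 and 2. In mCherry-positive replicate 3 it was 9554 CPM, against 13685 and 9468 CPM. The part of these sums in the members' levels was not tested.

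**Figure D4:**
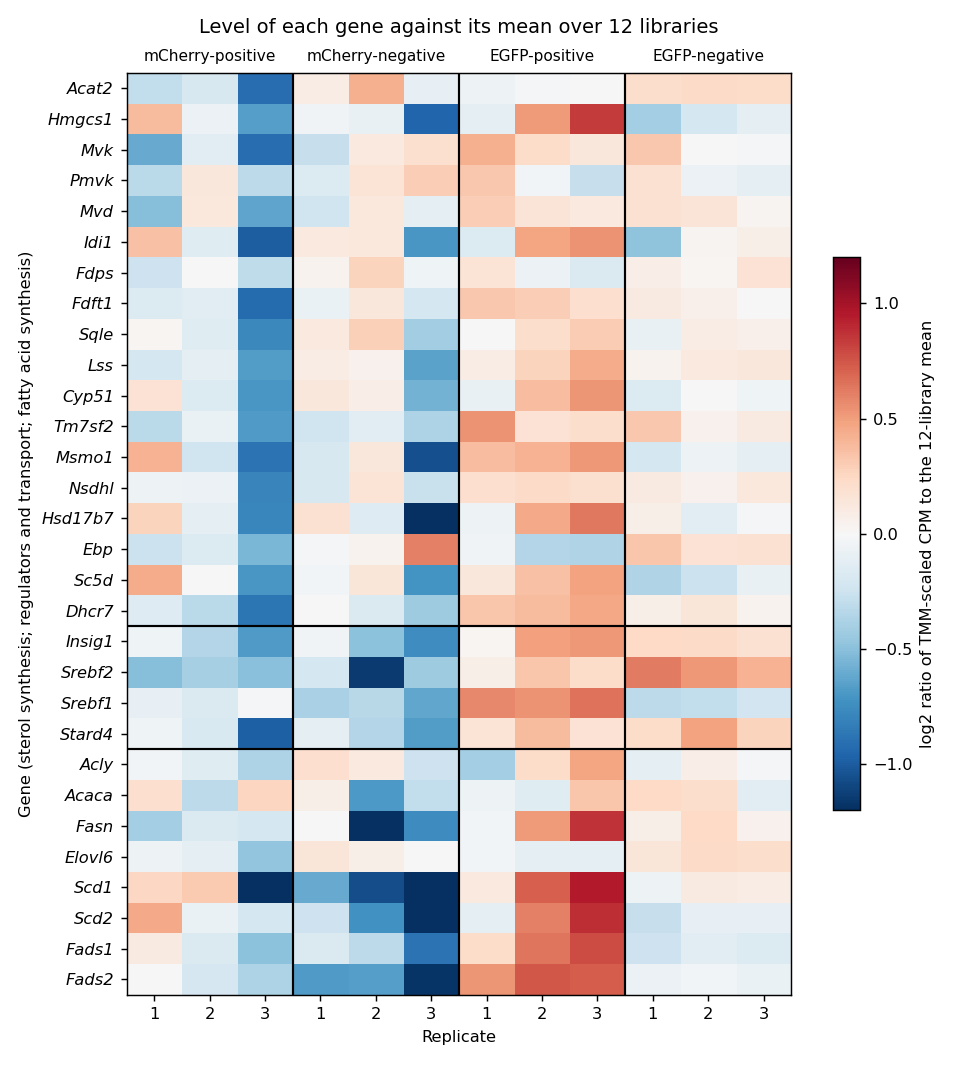
Log2 ratio of each member's CPM to its mean over 12 libraries, with genes in rows by role and libraries in columns by group and replicate. Replicate 3 of mCherry-positive and of mCherry-negative cells is low over most rows, and EGFP-positive replicates 2 and 3 are high over 6 of the 8 fatty acid genes, all but Acaca and Elovl6.

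Levels in the 2 kinds of positive cells were set against each other in the 12-sample fit. Virus and RNA input go with the sort, and their parts cannot be told apart. In mCherry-positive cells 9 of 30 members were lower than in EGFP-positive cells (7.67% of all 18063 genes tested) and 0 were higher (9.90% of all genes). At an unadjusted p under 0.05, 16 were lower and 0 higher (32.7% of all genes in either direction), and 0 were called higher by DESeq2 or by limma-voom. Below 0 were 29 of the 30 log2 fold changes, with a median of -0.52 beside -0.02 over all genes, and Acaca was the exception at 0.01. Markers of other cells differed in the same comparison: 10 of 10 of dividing cells, 3 of 10 of astrocytes, 3 of 7 of ependymal cells and 2 of 8 of fibroblasts and mural cells were called lower in mCherry-positive cells. Called higher were 8 of 10 of mature oligodendrocytes, 5 of 8 of oligodendrocyte precursors, 6 of 10 of neurons, 9 of 10 of microglia and 3 of 8 tested of the pituitary. Their part in the members' difference was not tested. The 9 members were the regulators Srebf1, Srebf2 and Insig1, the sterol enzymes Mvk, Fdft1, Tm7sf2 and Dhcr7, and the desaturases Fads1 and Fads2.

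Fads2 had 802, 696 and 619.9 CPM in mCherry-positive and 1153, 1336 and 1325 CPM in EGFP-positive libraries, the largest of these differences at -0.85 ± 0.15 (SE) in log2 (adjusted p 0.00194). Dhcr7 followed, with 148, 132 and 90.8 CPM in mCherry-positive and 208, 214 and 228 CPM in EGFP-positive libraries (-0.81 ± 0.17 (SE), adjusted p 0.00573). Srebf1 differed by -0.69 ± 0.12 (SE) (adjusted p 0.00173), Insig1 by -0.70 ± 0.21 (SE) (adjusted p 0.0313) and Srebf2 by -0.68 ± 0.19 (SE) (adjusted p 0.0258). Fdft1 had 276, 282 and 163 CPM in mCherry-positive and 387, 378 and 356 CPM in EGFP-positive libraries, and Tm7sf2 47.2, 55.99 and 37.01 CPM and 86.2, 66.9 and 68.3 CPM. All 9 had no overlap between the groups, as did 5 more members, 14 in all, against 18.1% of all genes lower without overlap. Leaving out mCherry-positive replicate 3 reduced the calls to 3 (Dhcr7, Srebf1 and Fads2), leaving out EGFP-positive replicate 2 to 4, and leaving out EGFP-positive replicate 3 to 5. The median over the 30 members was -0.33 without mCherry-positive replicate 3.

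Reporter-negative cells of the 2 sorts differed at fewer members. In mCherry-negative cells 2 of 30 were lower than in EGFP-negative cells (6.67%, against 1.29% of all genes) and 0 were higher (2.67% of all genes, and 0 by DESeq2 and by limma-voom). At an unadjusted p under 0.05, 7 were lower and 0 higher (16.8% of all genes in either direction). Srebf2 had 222, 116 and 191 CPM in mCherry-negative and 396, 369 and 342 CPM in EGFP-negative libraries (-1.07 ± 0.19 (SE) in log2, adjusted p 0.00587). Fads2 had 498, 504 and 354 CPM in mCherry-negative and 761, 782 and 755 CPM in EGFP-negative libraries (-0.76 ± 0.15 (SE), adjusted p 0.0106). The call on Fads2 was lost without EGFP-negative replicate 1 or 2 (adjusted p 0.0502 and 0.0520). Scd1 had the largest log2 fold change in size, -1.14 ± 0.37 (SE), and did not pass the test (adjusted p 0.120). Without overlap 10 members lay lower, against 12.5% of all genes. Over the 18 sterol enzymes the median was -0.08, beside 0.01 over all genes. Of the marker lists, 1 of 10 astrocyte and 1 of 7 ependymal markers were called lower in mCherry-negative cells, and of 8 markers of oligodendrocyte precursors 1 was called higher and 1 lower. The median over the 10 astrocyte markers was -0.64. Their part in the members' levels was not tested. These cross-sort comparisons use the same libraries as the reporter comparisons above and are not independent of them.

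Other genes of these pathways were described from 5 further lists of 81 genes. In EGFP-positive cells 8.99% of all genes tested were called higher and 7.07% lower. Of 9 tested genes of other sterol synthesis steps 3 rose (33.3%). Among them was Cyb5r3, a reductase that supplies electrons (0.34 ± 0.09 (SE), adjusted p 0.0362). Of 12 genes of sterol sensing and SREBP processing 1 rose (8.33%, near the share of all genes). It was Nr1h3, a liver X receptor for oxysterols (0.71 ± 0.19 (SE), adjusted p 0.0323). The calls on Cyb5r3 and Nr1h3 were each lost in the 12-sample fit and without EGFP-positive replicate 2 or EGFP-negative replicate 1, 2 or 3 in turn (adjusted p 0.0970 to 0.148 for Cyb5r3 and 0.0798 to 0.225 for Nr1h3). Of 22 tested genes of sterol uptake, export, storage and turnover 4 rose and 1 fell (18.2% and 4.55%). Those that rose were Abca1, described below for the mCherry sort (1.03), Cyp7b1, an oxysterol hydroxylase (1.23), Cyp46a1, the enzyme that clears brain cholesterol (1.00), and Soat1, which esterifies cholesterol (0.96). The lipoprotein receptor Lrp1 fell by 0.68 on the log2 scale. Cyp46a1 stood at 93.5, 84.3 and 85.6 CPM in EGFP-positive libraries, against 48.3, 41.7 and 39.9 CPM in EGFP-negative libraries, without overlap.

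Of 27 tested genes of fatty acid synthesis, elongation and activation outside the 30, 7 rose and 1 fell in EGFP-positive cells. These shares were 25.9% and 3.70%, against 8.99% and 7.07% of all genes. Acsl6, a brain acyl-CoA synthetase (1.04), the dehydratase Hacd2 (0.80) and Me1, a source of NADPH (0.81), rose, and the elongase Elovl7 fell by 1.17 on the log2 scale. Of 8 genes of myelin galactolipid synthesis 4 fell and 1 rose (50% and 12.5%, against 7.07% and 8.99% of all genes). Fa2h, the fatty acid hydroxylase of myelin lipids, had 11.2, 14.8 and 11.8 CPM in EGFP-positive libraries, against 63.9, 62.8 and 64.7 CPM in EGFP-negative libraries (-2.36 ± 0.15 (SE), adjusted p 4.68e-05). Ugt8a (-1.77), Gal3st1 (-1.83) and Gltp (-0.70) fell as well, beside 8 of 10 markers of mature oligodendrocytes. The gene that rose was Aspa, which frees acetate from N-acetylaspartate (0.99).

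In mCherry-positive cells 2 of 79 tested genes of these 5 lists rose and 0 fell by edgeR's test, against 0.541% and 0.656% of all genes. At an unadjusted p under 0.05, 16 were higher and 4 lower (18.6% of all genes in either direction). Abca1, the exporter that loads cholesterol onto lipoproteins, had 271, 119 and 228 CPM in mCherry-positive libraries, against 86.5, 44.5 and 56.8 CPM in mCherry-negative libraries (1.73 ± 0.33 (SE), adjusted p 0.0453). For Abca1 every positive library lay above every negative one. Its call was lost without mCherry-positive replicate 1 or 3, and without mCherry-negative replicate 1, 2 or 3 in turn (adjusted p 0.0645 to 0.180).

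**Figure D5:**
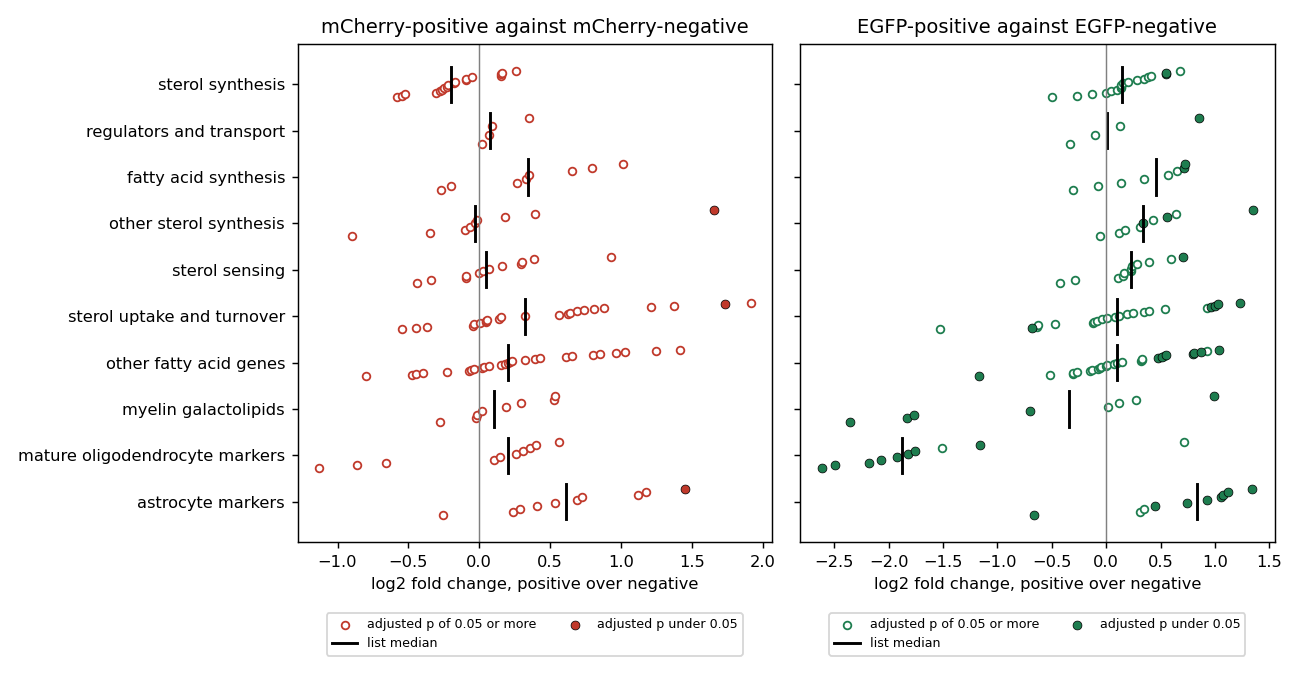
Log2 fold change, positive over negative cells, of each tested gene in the 3 groups of members, the 5 further lists, and the oligodendrocyte and astrocyte marker lists, in both sorts, with list medians as black lines and filled points for an adjusted p under 0.05. In the EGFP sort myelin galactolipid genes and oligodendrocyte markers lie far below 0 in part, astrocyte markers mostly above 0, and the 30 members within 1 unit of 0.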

How the data were processed

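RNA-seq counts from 12 libraries were analysed. Reads were handled with cutadapt 1.8, STAR 2.5.2b and HTSeq 0.6.1 on GRCm38, per the submitters' processing notes, and cDNA was made with SMART-Seq v4 and 11 PCR cycles, per the labels' protocols. The deposited counts per gene are whole reads, not normalized. No annotation release or strand setting for the counting is given in the sources used here. The 5 HTSeq summary entries, which held 31.4% to 38.2% of all counted entries, were left out.

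Of 48709 gene identifiers 48349 matched GENCODE M21, which gave symbols, lengths and coordinates. Each reporter comparison was fitted on its own 6 samples, and cross-sort comparisons on 12, with edgeR 4.0.16 (R 4.3.3): filterByExpr with a minimum count of 10 and minimum total of 15, TMM factors, the quasi-likelihood test, Benjamini-Hochberg adjustment over all genes tested and a threshold of 0.05. SE is the absolute log2 fold change over the square root of F. DESeq2 1.42.0 and limma-voom (limma 3.58.1), other filters, other scaling, left-out libraries and a replicate block were alternatives. Pmch and Hcrt were compared by exact permutation.

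Members and lists were chosen with earlier results of these data known, so counts over them are descriptions. All members are named, and from each further list up to 4 called genes with the smallest adjusted p, apart from Aspa and Abca1 in EGFP cells, named after their values were seen. Some genes that this rule would name are not reported here. Markers of endothelial cells (1.41 to 3.32 CPM in mCherry-positive, 1.72 to 2.68 in mCherry-negative, 0.310 to 2.56 in EGFP-positive and 0.843 to 2.70 in EGFP-negative libraries in sum) were near 0. Counts of any pair of libraries within a group differed by a chi-square of 6.20 to 88.5 per degree of freedom, so none agreed within counting error. This does not show that they came from separate cultures, since reads are PCR copies. Intervals of counting error were not used, because the fits estimate the spread between samples.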

Additional observations from a re-analysis of the deposited data

Results flagged for a closer look

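The reporter effect differed between the sorts, by the test of the difference itself over all genes in edgeR's 12-sample fit, for 4 genes of the further lists. Values are the mCherry log2 fold change minus the EGFP one. For Fa2h the difference was 2.31 ± 0.33 (SE) (adjusted p 0.00683). Its levels were 41.4, 48.98 and 27.2 CPM in mCherry-positive and 45.9, 28.7 and 45.7 CPM in mCherry-negative libraries, and 11.2, 14.8 and 11.8 CPM in EGFP-positive and 63.9, 62.8 and 64.7 CPM in EGFP-negative libraries. For Ugt8a, the galactosyltransferase of myelin lipids, it was 2.03 ± 0.36 (SE) (adjusted p 0.0202), with 138, 120.1 and 80.8 CPM in mCherry-positive and 113, 73.5 and 92.3 CPM in mCherry-negative libraries, and 19.3, 27.2 and 39.1 CPM in EGFP-positive and 83.2, 101 and 105 CPM in EGFP-negative libraries. For Gal3st1, which sulphates galactolipids, it was 1.52 ± 0.35 (SE) (adjusted p 0.0493). For Lrp1 it was 0.98 ± 0.21 (SE) (adjusted p 0.0364). The calls on Gal3st1 and Lrp1 were lost in 11 and 10 of 18 alternative fits, at adjusted p up to 0.140 and 0.108, and that on Ugt8a in 4, all with a library left out, at up to 0.0725, while that on Fa2h held in all 18. The summed markers of mature oligodendrocytes, given in the report, were lower in EGFP-positive than in EGFP-negative libraries and overlapped between the mCherry groups. Their part in these differences was not tested. Groups of 3 samples were not tested for single libraries that stand apart.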

How the results depend on the processing

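The effects carried through the alternatives were those of called members and of up to 4 called genes per further list and comparison. None of these reversed its direction. Calls on markers, and those on Aspa and Abca1 in EGFP cells, were not carried through. Members called higher in mCherry-positive cells numbered 0, but 2 with DESeq2 and 1 in the 12-sample fit. In EGFP-positive cells 5 were called higher, but 8 with no filter, 9 with DESeq2 and 2 in the 12-sample fit, and 4 to 15 with a library left out. None was called lower by the edgeR fit, but 1 with the stricter filter, 2 with DESeq2, 1 with limma-voom and 0 to 2 with a library left out. In that 12-sample fit Msmo1, Sc5d and Fads1 missed the threshold (adjusted p 0.315, 0.249 and 0.0504). Members lower in mCherry-positive than in EGFP-positive cells numbered 9, but 5 when only those 6 samples were fitted, 11 with DESeq2 or with no filter, 10 with limma-voom or the stricter filter, and 3 to 10 with a library left out. Members lower in mCherry-negative than in EGFP-negative cells numbered 2, but 5 with DESeq2 and 1 to 4 with a library left out. Members called for the difference of effects stayed at 0 throughout. Over all alternatives, the effects of called members kept their side of the threshold in 175 fits and lost it in 33. For named genes of the further lists these were 524 and 94.

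With the replicate number as a block, 8 members were called higher and 2 lower in EGFP-positive cells. The numbers do not pair the samples: deviations of same-numbered libraries correlated at 0.126, -0.0191 and 0.0246 in the mCherry sort and 0.114, -0.00460 and 0.0287 in the EGFP sort, and not every library correlated best with its own number.

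Over all genes, 94 were called higher and 114 lower in mCherry-positive cells, against 885 and 591 with DESeq2, 883 and 829 in the 12-sample fit, and 0 and 0 without mCherry-positive replicate 3, mCherry-negative replicate 1 or mCherry-negative replicate 2. In EGFP-positive cells 458 and 343 were called in the 12-sample fit, against 1468 and 1154. DESeq2 called 1966 and 1554 there, and the fit with no filter 1807 and 1286. In mCherry-positive against EGFP-positive cells 1385 genes were called lower, against 1748 with DESeq2 and 638 in a fit of those 6 samples. In mCherry-negative against EGFP-negative cells 233 were lower, against 629 with DESeq2. With 3 samples a group, and a wider spread in the mCherry sort, changes of the size called in the EGFP sort could be missed there.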

Other observations

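The balance between the SREBP genes was also computed within each library, as the ratio of TPM values, which does not depend on library scaling. The ratio of Srebf1 to Srebf2 was 2.29, 1.86 and 2.17 in EGFP-positive libraries and 0.838, 0.913 and 1.03 in EGFP-negative libraries, without overlap (exact two-sided permutation p = 0.1, the lowest that 3 against 3 samples allow). In the mCherry sort it was 2.14, 1.88 and 2.24 in mCherry-positive and 1.43, 2.85 and 1.41 in mCherry-negative libraries, which overlapped (exact two-sided permutation p = 0.8). The ratio was above 1 in 10 of the 12 libraries, and below 1 in EGFP-negative replicates 1 and 2.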
